A study of Oryza sativa with 12 samples.

Results

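Ribosomal protein genes and translation factor genes were followed in rice (Oryza sativa) suspension cells deprived of sucrose. Members were taken from the gene annotation by name: a symbol or synonym beginning with RPL, RPS or RPP and a digit, or with eIF, EIF, EF-1, eEF or EF-2, with or without the prefix Os. Names were read in either case, which added rpl5, rps20 and rps14/SDH2-1. The annotation held 82 such genes, and 29 of them had a probe, out of 15798 genes with a probe. These 29 were 19 ribosomal protein genes, 8 translation factor genes and 2 genes that share only the letters RPP. All 29 were tested in every comparison. Of the 53 genes not described here for want of a probe, 26 were in the plastid genome and 13 in the mitochondrial genome, so no gene of an organelle genome was measured.

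Starved cells had spent 12, 24 or 48 h in sucrose-free Murashige and Skoog medium, and control cells as long in medium holding 3% sucrose. A further set of starved cells at 12 h was set against control cells in 88 mM sorbitol, which the design text gives as the control for osmotic stress. Each of the 12 arrays carried polyadenylated RNA of starved cells in Cy5 beside that of control cells in Cy3, and each of the 4 groups had 3 numbered replicates. The sources used here name neither a cultivar nor a line, and do not say whether replicates came from separate cultures, so p-values reflect array-to-array spread alone, and that spread can be technical.

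A ribosome has a small and a large subunit, each built of ribosomal RNA and many proteins, whose names begin with RPS (small) and RPL (large). Initiation factors (eIF) bring messenger RNA and the small subunit together, and elongation factors (EF) deliver aminoacyl-tRNA and move the ribosome along the message. Making ribosomes is among the costliest tasks of a growing plant cell, and sugar supply is known to influence it. Plant cells translate in the cytosol, in plastids and in mitochondria, and most ribosomal proteins of all 3 places are encoded in the nucleus. The name settled the place for 4 of the 19 ribosomal protein genes: RPS3A, RPL7A-2 and RPL10A belong to families of the cytosolic ribosome, and rps14/SDH2-1 is mitochondrial. The other 15 could not be assigned from their names. In rps14/SDH2-1, mitochondrial ribosomal protein S14 shares a locus with the iron-sulfur subunit of succinate dehydrogenase, so its probes may read either.

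Values are log2 ratios of starved over control cells; a value below 0 is a lower level in starved cells. A mean is over 3 arrays, and a gene is said to have fallen or risen where its adjusted p from limma was under 0.05. The ratio carries no expression level, so ratios compare each gene with its own control only. In bulk RNA, fewer cells expressing a gene and less of its RNA per cell cannot be told apart. Starved over control was the likely direction on the sucrose arrays, since the starvation-induced alpha-amylase genes RAmy3D and RAmy3E averaged 2.34 and 2.93 at 12 h. The 2 probes of RAmy3D disagreed, with 4.04 and 0.64 at 12 h, while those of RAmy3E had 2.83 and 3.02. On the sorbitol arrays, where both genes averaged near 0 (0.03 and -0.28), the direction rests on the dye labels alone. The dyes were never swapped, so any dye bias of a probe stays in each mean.

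The arrays of a group differed in ways that touch every count below. Over its probes, an array's log2 ratios had an SD of 0.30 to 0.38 in the sorbitol set and 0.64 to 1.26 elsewhere, with the highest value on 48 h replicate 2, which also had 13.6% blank probes. Across probes, which are not independent replicates, arrays of the 12 h group correlated least (lowest r 0.279) and those of the sorbitol group most (highest r 0.790). Markers of photosynthetic tissue and of seeds, which suspension cells should hold little of, were looked at as ratios. Of 4 photosynthetic genes tested over sucrose, PSAH and PSBW rose at 12, 24 and 48 h (1.83 and 2.01 at 12 h), the other 2 passed at no time, and CAB2R had blanks. Over all features, 5.04%, 4.73% and 12.4% rose at 12, 24 and 48 h. Of 5 seed storage genes, GLB1 alone fell, at 48 h (-0.79, with -1.84 on replicate 2), against 13.0% of all features. The other 4 seed storage genes passed at no time. The part of such differences in the ratios below was not tested.

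After 48 h without sucrose, most ribosomal protein genes were lower in starved cells. All 19 had a mean below 0, 14 fell and none rose, and the median of the 19 means was -0.99. Of all features tested at 48 h, 13.0% fell, 12.4% rose and the median was near 0. All 3 arrays were below 0 for 17 of the 19, against 26.4% of all features. RPL5 was lowest, with a mean of -1.95 that leaves starved cells at 0.259 times the control level. How far replicate 2 carries this count is given after the genes.

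**Figure D1:**
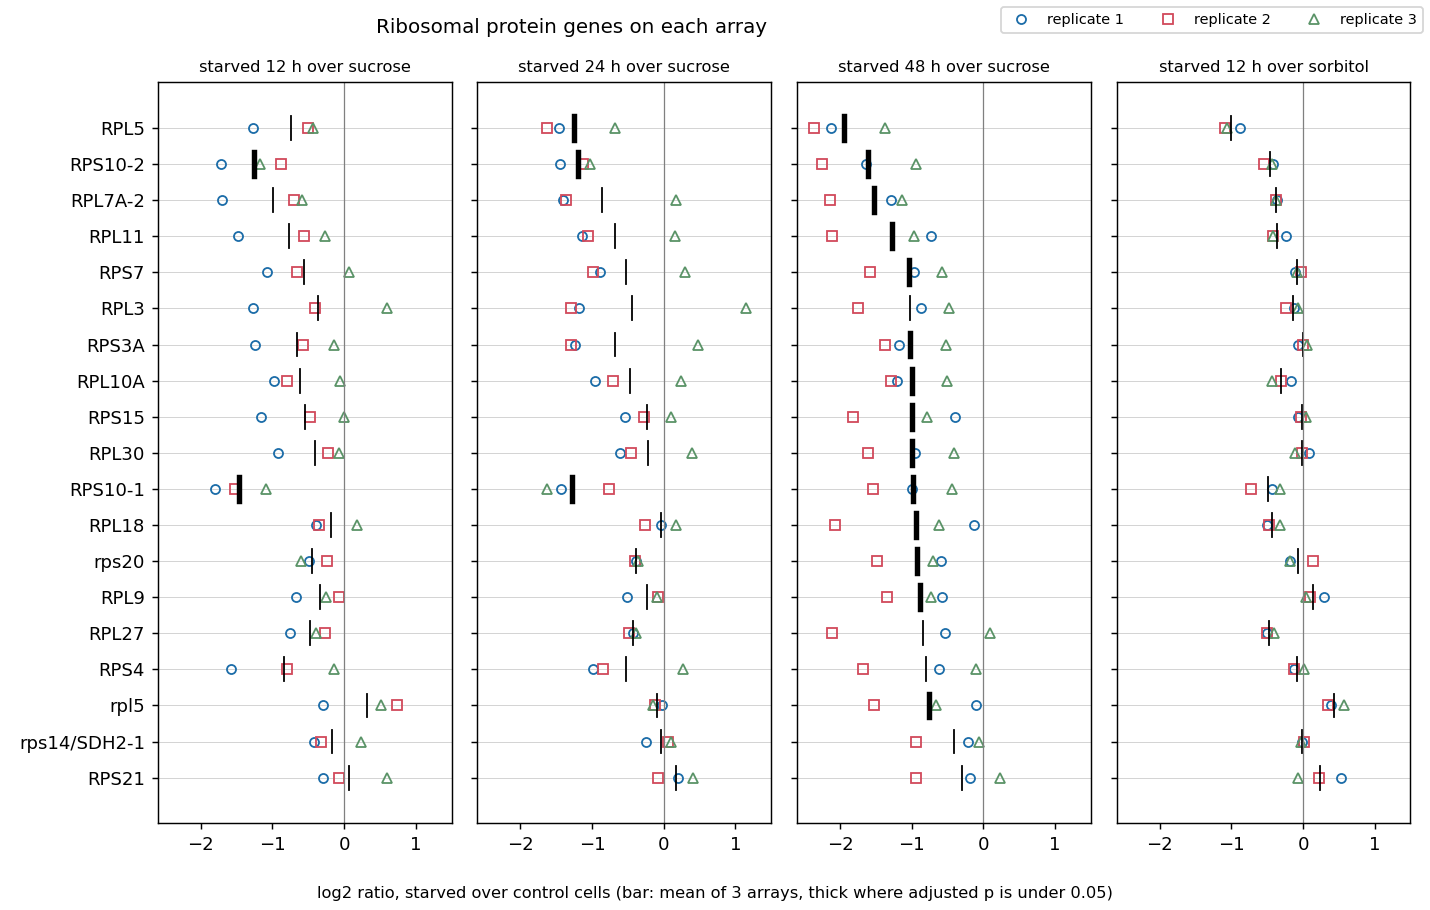
Log2 ratio of starved over control cells (horizontal axis) for the 19 ribosomal protein genes in 4 panels, 1 per group; each symbol is 1 array and the bar is the mean of 3, thick where the adjusted p is under 0.05. At 48 h 14 bars are thick, against 2 at 12 h, 3 at 24 h and 0 against sorbitol.

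Large-subunit genes gave the lowest ratio. RPL5 (LOC4325100) is named like the yeast and mammalian protein that carries 5S ribosomal RNA into the large subunit. It had ratios of -2.12, -2.36 and -1.37 at 48 h. Their mean was -1.95 ± 0.52 (SD, n = 3; adjusted p = 0.000242). All 3 arrays were far below 0. RPL7A-2 (LOC4347522), of the cytosolic large subunit, had -1.29, -2.14 and -1.13 at 48 h, with a mean of -1.52 ± 0.54 (adjusted p = 0.00491). RPL11 (LOC4338077), named like the yeast and mammalian partner of RPL5 in binding 5S RNA, had -0.72, -2.12 and -0.97, with a mean of -1.27 ± 0.74 (adjusted p = 0.0125). In both genes replicate 2 lay well below the other 2 arrays.

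RPL10A (LOC9266191), also of the cytosolic large subunit, had -1.20, -1.29 and -0.50 at 48 h (mean -1.0, adjusted p = 0.0141), so here replicate 3 stood apart as the highest. RPL30 (LOC4324441) had -0.95, -1.61 and -0.41 (mean -0.99, adjusted p = 0.0158). RPL18 (LOC4334651) had -0.13, -2.08 and -0.62 (mean -0.94, adjusted p = 0.0314), and most of its mean came from replicate 2. RPL9 (LOC4347422) had -0.58, -1.34 and -0.73 (mean -0.89, adjusted p = 0.00684). The gene written rpl5 (LOC4331459) had -0.11, -1.52 and -0.67 (mean -0.76, adjusted p = 0.0430), again with replicate 2 apart from the others.

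Among small-subunit genes at 48 h, RPS10-2, one of a pair named for protein S10, had the lowest mean. RPS10-2 (LOC4335865) had -1.64, -2.25 and -0.94 at 48 h, with a mean of -1.61 ± 0.65 (adjusted p = 0.000621). RPS10-1 (LOC4329619) had -0.99, -1.53 and -0.43, with a mean of -0.99 ± 0.55 (adjusted p = 0.0108), close to the means of RPS7, RPS3A and RPS15. Neither gene had an array above 0.

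RPS7 (LOC4338485) had -0.96, -1.58 and -0.58 at 48 h (mean -1.04, adjusted p = 0.0181). RPS3A (LOC4331966), of the cytosolic small subunit, had -1.18, -1.37 and -0.53 (mean -1.03, adjusted p = 0.0335). RPS15 (LOC4342580) had -0.39, -1.82 and -0.78 (mean -1.0, adjusted p = 0.0185). All 3 of these genes were below 0 on every array, lowest on replicate 2. The gene rps20 (LOC4340027) had -0.59, -1.48 and -0.70 (mean -0.92, adjusted p = 0.00501), but 1 of its 2 probes was blank on replicates 1 and 2, so its mean mixes probes. Probe means at 48 h were -1.01 and -0.45.

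The 5 ribosomal protein genes that missed the threshold at 48 h also had means below 0. RPL3 (LOC4351604), named for a protein near the catalytic centre of the large subunit, had -0.86, -1.74 and -0.48 (mean -1.03, adjusted p = 0.103). RPL27 had -0.53, -2.11 and 0.10 (mean -0.85, adjusted p = 0.0586), and its value on replicate 2 came from 1 of its 2 probes, whose means were 0.18 and -1.11. RPS4 had -0.62, -1.68 and -0.11 (mean -0.80, adjusted p = 0.0916). In these 3 the arrays spread widely and replicate 2 was far lowest.

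The mitochondrial rps14/SDH2-1 had -0.22, -0.95 and -0.06 at 48 h (mean -0.41, adjusted p = 0.155), and its 2 probes averaged -0.17 and -0.64. RPS21 was nearest to 0 among ribosomal protein genes, with -0.19, -0.95 and 0.23 (mean -0.30, adjusted p = 0.383), and its arrays lay on both sides of 0.

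Replicate 2 was the lowest of the 3 arrays at 48 h for 19 of 19 ribosomal protein genes, and replicate 3 the highest for 13. The class median was -0.72 on replicate 1, -1.61 on replicate 2 and -0.58 on replicate 3. Without replicate 2, only RPL5 and RPS10-2 passed (adjusted p = 0.00440 and 0.00840), where 7.86% of all features passed in either direction. Their means were then -1.74 and -1.29. Without replicate 1, RPL30, RPS3A, RPS7 and RPL10A missed the threshold, where 16.5% of all features passed in either direction. Without replicate 3, rpl5 missed it while RPL27 and RPS4 passed, against 25.5% of all features. RPS3A and rpl5 also missed the threshold when any 1 sorbitol array was left out of the shared spread, where 20.7% to 20.9% of features passed. In a fit of the 48 h arrays alone, 3 genes passed, RPL5, RPS10-2 and RPL7A-2, against 5.26% of all features. Without replicate 2 the class median was still -0.67, and RPS21 alone had a mean above 0 (0.02). On replicates 1 and 3, 19 and 17 of the 19 genes were below 0, so the direction was shared by most genes on all arrays. The number that passed depended on replicate 2, on replicate 1 and on which arrays shared the spread.

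**Figure D2:**
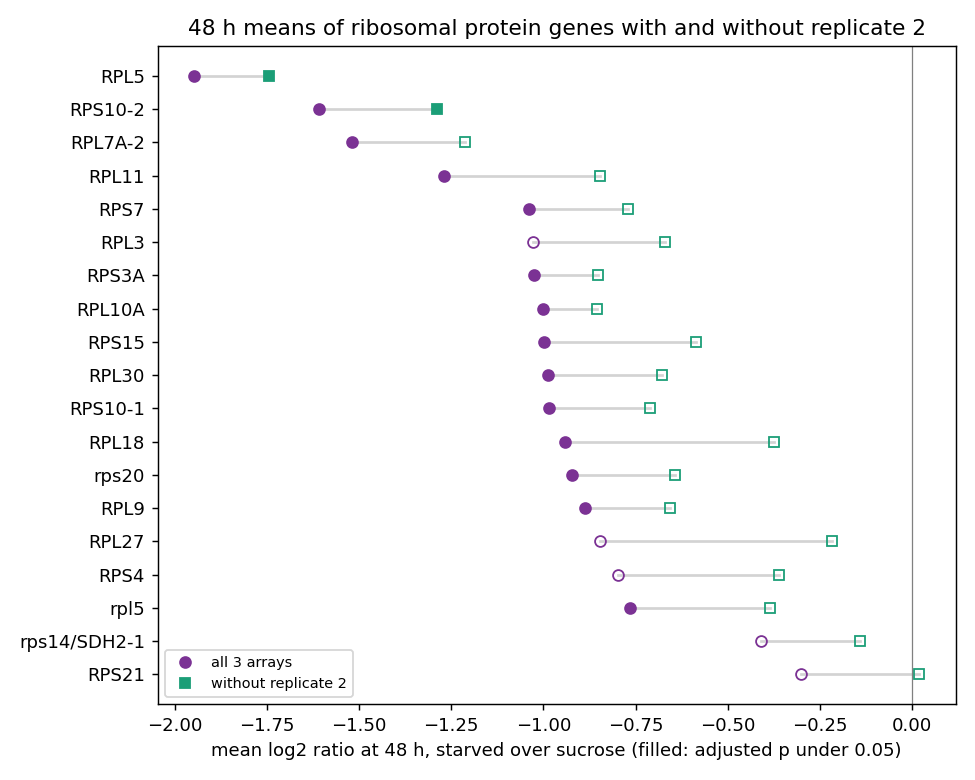
Mean log2 ratio at 48 h (horizontal axis) of the 19 ribosomal protein genes over all 3 arrays (circles) and without replicate 2 (squares), filled where the adjusted p is under 0.05. Every square lies right of its circle, and 2 squares are filled against 14 circles.

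The 12 h comparison asks what happened first after sucrose was removed. At 12 h 2 ribosomal protein genes fell, RPS10-1 and RPS10-2, against 4.04% of all features that fell. The class median was -0.55, and 17 of 19 means were below 0. All 3 arrays were below 0 for 13 genes, against 18.3% of all features. At an unadjusted p under 0.05, 8 genes were lower, against 11.6% of all features, and none was higher.

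RPS10-1 had ratios of -1.80, -1.52 and -1.08 at 12 h, with a mean of -1.47 ± 0.36 (SD, n = 3; adjusted p = 0.00300). RPS10-2 had -1.71, -0.88 and -1.17, with a mean of -1.26 ± 0.42 (adjusted p = 0.00685). Both were below 0 on every array. RPL7A-2 had -1.70, -0.70 and -0.58 (mean -0.99, adjusted p = 0.0694). RPL5 had -1.28, -0.51 and -0.43 (mean -0.74, adjusted p = 0.0819). In these 2 genes replicate 1 was much the lowest, and neither passed.

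Across the class, replicate 1 was the lowest of the 12 h arrays for 18 of 19 genes. The class median was -1.08 on replicate 1, -0.47 on replicate 2 and -0.14 on replicate 3. Without replicate 1, RPS10-1 alone passed, against 2.08% of all features. RPL3 shows the spread most plainly, with -1.28, -0.40 and 0.60 and a mean of -0.36 ± 0.94 (adjusted p = 0.664). The 2 genes with means above 0 at 12 h were rpl5, with -0.29, 0.74 and 0.52 (mean 0.32, adjusted p = 0.467), and RPS21, with a mean of 0.07 (adjusted p = 0.887).

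At 24 h 3 ribosomal protein genes fell, RPS10-1, RPS10-2 and RPL5, against 3.87% of all features. The class median was -0.44, and 18 of 19 means were below 0. All 3 arrays were below 0 for 7 genes, against 20.4% of all features.

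RPS10-1 had -1.43, -0.77 and -1.62 at 24 h, with a mean of -1.27 ± 0.45 (adjusted p = 0.00613). RPL5 had -1.46, -1.63 and -0.68, with a mean of -1.26 ± 0.51 (adjusted p = 0.00801). RPS10-2 had -1.45, -1.13 and -1.03, with a mean of -1.20 ± 0.22 (adjusted p = 0.00781). These 3 genes were below 0 on every array. The others were mostly near or above 0 on replicate 3: RPL3 had -1.18, -1.29 and 1.14, and RPL7A-2 had -1.41, -1.36 and 0.17. Replicate 3 was the highest array for 16 of 19 genes, with a class median of 0.16, against -0.88 on replicate 1 and -0.70 on replicate 2. Without replicate 3, 6 genes passed, against 13.9% of all features, and without replicate 1 none did, against 3.45%. Without replicate 2, RPL5 missed the threshold and the S10 genes passed, against 2.71% of all features.

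**Figure D3:**
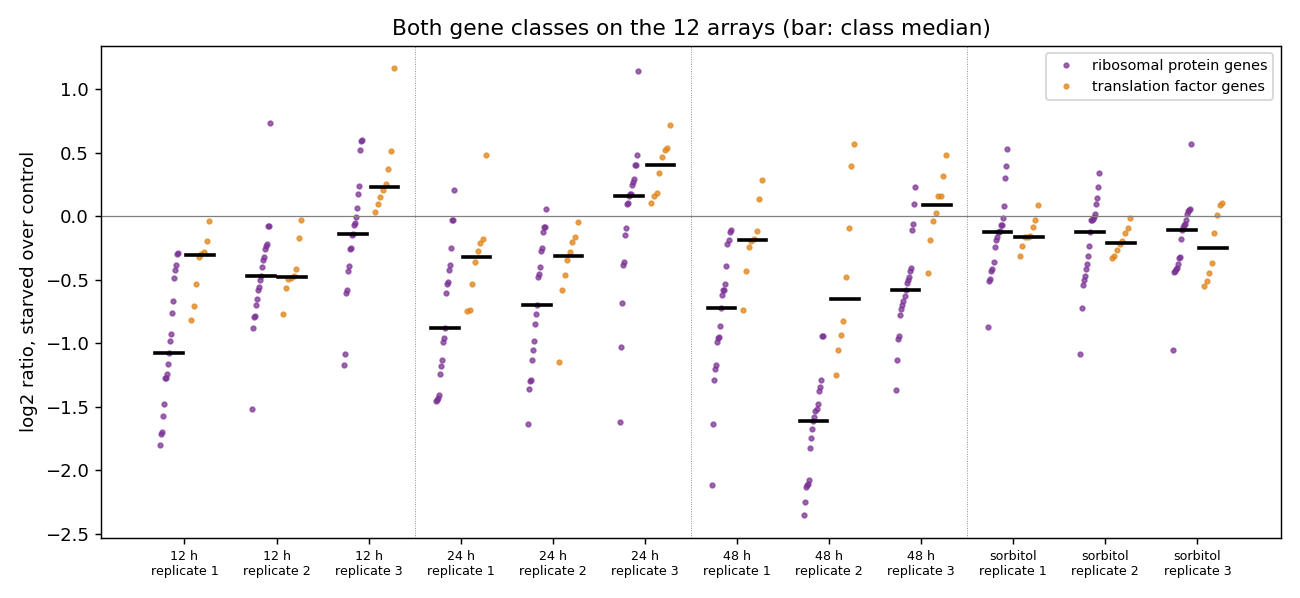
Log2 ratio of starved over control cells (vertical axis) for each ribosomal protein gene and each translation factor gene on the 12 arrays, with a bar at the class median. On 48 h replicate 2 the ribosomal protein median is -1.61, and on 24 h replicate 3 both medians are above 0.

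The times were also set against each other directly. No ribosomal protein gene passed for 48 h minus 12 h, where 0.00594% of features passed, or for 48 h minus 24 h, where 0.00% did. At an unadjusted p under 0.05, limma had 2 genes lower at 48 h in each, against 5.86% of all features for 48 h minus 12 h and 1.78% for 48 h minus 24 h. The median difference was -0.48 for 48 h minus 12 h and -0.54 for 48 h minus 24 h. RPL5 averaged -1.95 at 48 h and -0.74 at 12 h, a difference of -1.21 (95% interval -1.97 to -0.46, adjusted p = 0.310), and its arrays did not overlap between these times. It was the only such gene of the 19, against 6.25% of all features. RPS10-1 went the other way, with -0.99 at 48 h and -1.47 at 12 h (95% interval of the difference -0.25 to 1.21, adjusted p = 0.665). For 48 h minus 24 h, RPL9 and rps20 did not overlap, 2 of 19 genes, against 2.33% of all features. For rps20 this mixes probes, since 1 of its 2 probes was blank on 48 h replicates 1 and 2. Its other probe had -0.58, -1.48 and -0.95 at 48 h and -0.77, -0.99 and -0.71 at 24 h, which overlap. In these tests, the larger number that fell at 48 h is not shown to be a difference between the times.

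Arrays of the same number deviated together between 24 and 48 h, so these times were also compared within pairs, which was not planned beforehand. RPL5 differed by -0.66, -0.72 and -0.69 (48 h minus 24 h) in pairs 1, 2 and 3. All 3 pairs gave nearly the same difference in this gene. RPL18 differed by -0.09, -1.82 and -0.80, and RPL30 by -0.34, -1.15 and -0.81. In all, 9 of 19 ribosomal protein genes were lower at 48 h in all 3 pairs, and none was higher in all 3, while 12.6% of all features were lower in all 3. The other 6 of these 9 were rpl5, RPS21, RPS7, rps20, RPL10A and RPL9. For rps20, pair 1 sets 1 probe at 48 h against the mean of 2 probes at 24 h. That probe alone had -0.58 at 48 h and -0.77 at 24 h, so rps20 is not shown to be lower in pair 1. With the replicate number as a block in a limma fit of the 24 and 48 h arrays, no ribosomal protein gene passed, where 0.00592% of all features did. At an unadjusted p under 0.05, 3 genes were lower in that fit, RPL5, RPL18 and RPL30, against 3.07% of all features. RPL5 had a 95% interval of -1.33 to -0.06 there (adjusted p = 0.866).

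The 2 S10 genes and the pair RPL5 and rpl5 share a root name. RPS10-2 averaged -1.26, -1.20 and -1.61 at 12, 24 and 48 h, and RPS10-1 averaged -1.47, -1.27 and -0.99, so both were low at all times. RPL5 averaged -0.74, -1.26 and -1.95, whereas rpl5 averaged 0.32, -0.10 and -0.76. The names do not tell whether RPL5 and rpl5 stand for proteins of the same compartment. No ribosomal protein gene and no translation factor gene had a mean above 0 at all 3 times.

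The sorbitol set asks how starved cells compare with cells that lack sucrose but have an osmotic control. No ribosomal protein gene passed against sorbitol, where 0.0515% of all features passed, and 1, RPL5, was lower at an unadjusted p under 0.05 in limma, against 3.38% of all features. The class median was -0.08, and all 3 arrays were below 0 for 10 of 19 genes, against 31.0% of all features. RPL5 had -0.88, -1.08 and -1.06, with a mean of -1.0 ± 0.11 (SD, n = 3; adjusted p = 0.269). RPS10-1 had -0.43, -0.72 and -0.33 (mean -0.49, adjusted p = 0.780). RPS10-2 had -0.42, -0.54 and -0.44 (mean -0.47). The 3 arrays lay close together in each of these genes, all below 0.

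The test against sorbitol used a spread shared with the more variable sucrose arrays. When only the sorbitol arrays were fitted, 8 ribosomal protein genes fell and rpl5 rose, against 35.9% of all features. RPL5 then had an adjusted p of 2.42e-05, and rpl5, with 0.39, 0.34 and 0.57, had a mean of 0.43 and an adjusted p of 0.00300. The other 7 that fell in that fit, from -0.30 to -0.49, were RPL27, RPS10-1, RPL18, RPS10-2, RPL11, RPL7A-2 and RPL10A.

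Sorbitol over sucrose at 12 h was taken as the ratio over sucrose minus the ratio over sorbitol, which rests on the starved cells of both sets being alike. The median of the 19 genes was -0.39, and none passed, where 1.46% of features did. In limma 2 genes were lower at an unadjusted p under 0.05, against 6.50% of all features. The groups did not overlap for 7 genes, all lower, against 14.4% of all features. RPS10-1 averaged -1.47 over sucrose and -0.49 over sorbitol, a difference of -0.98 (95% interval -1.70 to -0.25, adjusted p = 0.195). RPL5 averaged -0.74 over sucrose and -1.0 over sorbitol, a difference of 0.27 (95% interval -0.48 to 1.02, adjusted p = 0.791). This difference was 1.09 and passed (adjusted p = 0.0148) when all arrays were set to 1 scale, where 7.78% of features passed, so it depends on how the quieter sorbitol arrays are scaled.

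None of the 8 translation factor genes passed at 12, 24 or 48 h, where 9.09%, 8.60% and 25.5% of all features passed in either direction, and none passed against sorbitol or in any difference. In limma none had an unadjusted p under 0.05 in any of these 7 comparisons. Class medians were -0.19, -0.12 and -0.30 at 12, 24 and 48 h and -0.18 against sorbitol. Individual means ran from -0.53 to 0.37 over sucrose.

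**Figure D4:**
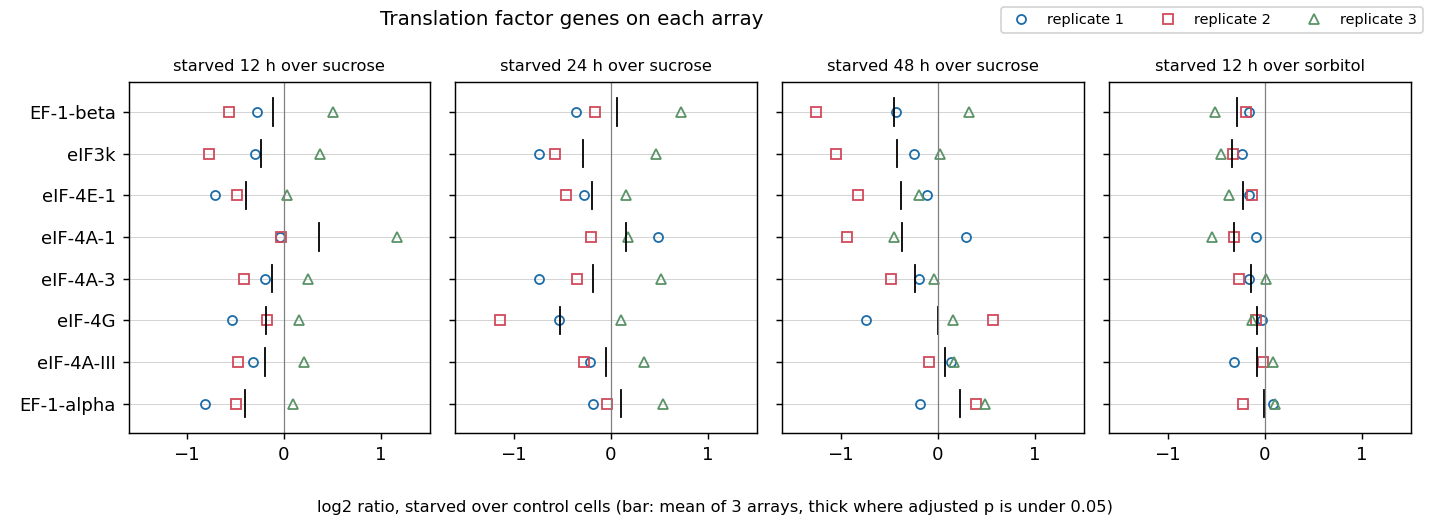
Log2 ratio of starved over control cells (horizontal axis) for the 8 translation factor genes in 4 panels, 1 per group; each symbol is 1 array and the bar is the mean of 3. No bar is thick, and at 12 and 24 h the triangles of replicate 3 lie right of 0 for all 8 genes.

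Among initiation factors, eIF-4E-1 (LOC4323837), the protein that binds the cap of messenger RNA, had -0.11, -0.82 and -0.19 at 48 h (mean -0.38 ± 0.39, adjusted p = 0.198). The scaffold gene eIF-4G (LOC4343565) was nearest to 0, with -0.74, 0.57 and 0.16 (mean -0.00 ± 0.67, adjusted p = 0.996). Its 5 probes disagreed, from -0.19 to 0.23 at 48 h and from -1.24 to 0.08 at 24 h. The eIF3k gene (LOC4331842), for a subunit of the eIF3 complex, had -0.25, -1.05 and 0.02 at 48 h (mean -0.42, adjusted p = 0.285). In each of these genes the arrays were spread over more than the mean itself.

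A further 3 names share the root eIF-4A, the family of RNA helicases that unwind messenger RNA. The gene eIF-4A-1 (LOC4341966) had 0.29, -0.94 and -0.45 at 48 h, with a mean of -0.37, and averaged 0.37 at 12 h. At 12 h eIF-4A-1 had -0.04, -0.03 and 1.16 over sucrose, so its mean of 0.37 came from replicate 3. Over sorbitol it had -0.09, -0.31 and -0.55, with a mean of -0.32 (difference 0.68, 95% interval -0.16 to 1.52, adjusted p = 0.462). The gene eIF-4A-3 (LOC4328286) averaged -0.12, -0.19 and -0.24 at 12, 24 and 48 h. The third, eIF-4A-III (LOC4333273), a helicase of the exon junction complex in other eukaryotes, averaged -0.20, -0.05 and 0.07. None of the 3 had all arrays of a sucrose group on 1 side of 0 other than eIF-4A-3 at 48 h, with -0.20, -0.48 and -0.04.

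Of the elongation factors, EF-1-alpha (LOC4331810), which delivers aminoacyl-tRNA to the ribosome, averaged -0.41, 0.10 and 0.23 at 12, 24 and 48 h. Rice has near-identical copies of this gene, so its probe may read several. EF-1-beta (LOC4344188), the exchange factor that recharges EF-1-alpha, averaged -0.11, 0.06 and -0.45. Arrays within a group disagreed in sign: at 12 h EF-1-alpha had -0.82, -0.50 and 0.10, and at 48 h it had -0.18, 0.40 and 0.48.

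The sign of the factor genes followed the replicate number at the earlier times. At 12 h all 8 were below 0 on replicates 1 and 2, and all 8 above 0 on replicate 3, with class medians of -0.31, -0.48 and 0.23. At 24 h 7 and 8 of them were below 0 on replicates 1 and 2, and all 8 above 0 on replicate 3. Ribosomal protein genes stood highest on the same arrays. Without the arrays numbered 3, 6, 8 and 15 ribosomal protein genes fell at 12, 24 and 48 h, where 8.51%, 14.8% and 27.5% of all features passed, and 1 factor gene, EF-1-beta, fell at 48 h.

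Genes outside the name rule that serve translation, ribosome assembly and sugar signalling were read from lists of names. Of 5 further translation genes, 2 fell at 12 h, none at 24 h and 3 at 48 h, with medians of -0.78, -0.78 and -0.84. Over all features, 4.04%, 3.87% and 13.0% fell at these times. RACK1A (LOC4324115), a scaffold protein on the small subunit, had -1.77, -2.57 and -1.29 at 48 h (mean -1.87 ± 0.65, adjusted p = 0.00184). At 12 h it averaged -1.37 ± 0.86 (adjusted p = 0.0220) and at 24 h -1.10 (adjusted p = 0.0557). RACK1B (LOC4339539), its paralog, had -0.97, -2.92 and -0.76 at 48 h (mean -1.55, adjusted p = 0.0117). Both RACK1 genes were below 0 on all 9 sucrose arrays.

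EF-Ts, the exchange factor of organelle translation, averaged -0.84 at 48 h (adjusted p = 0.0233). TCTP, the translationally controlled tumour protein, fell at 12 h (-0.78, adjusted p = 0.0416) and averaged 0.13 at 48 h (adjusted p = 0.703). OsPAB1 passed at no time.

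**Figure D5:**
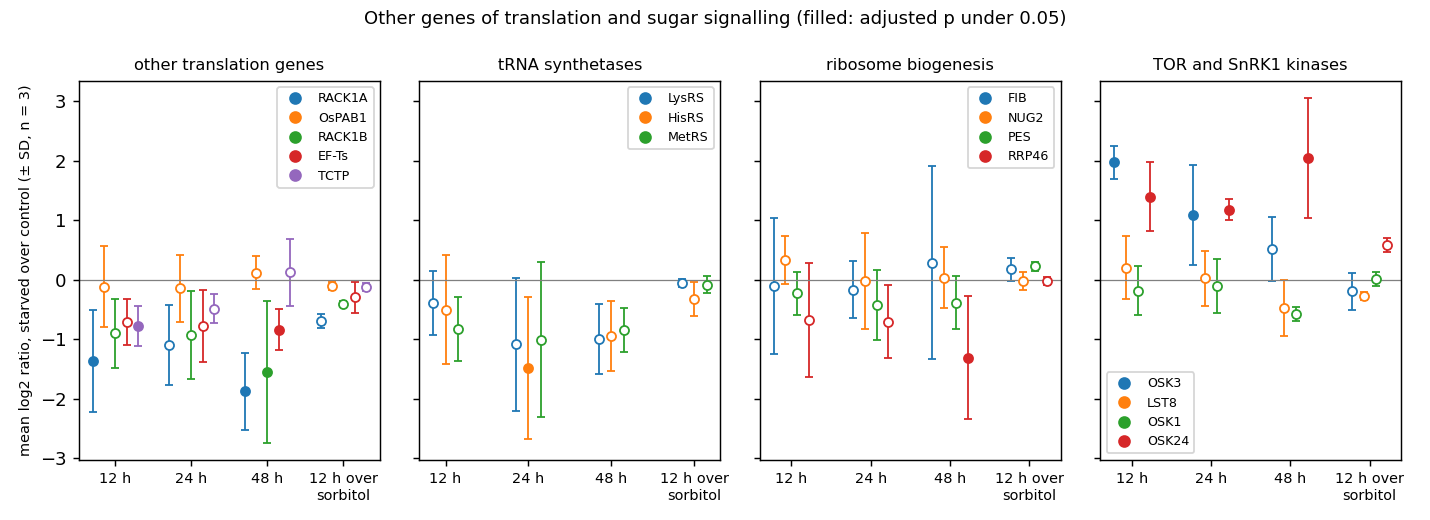
Mean log2 ratio of starved over control cells (vertical axis, ± SD of 3 arrays) at 12, 24 and 48 h over sucrose and 12 h over sorbitol, for 4 lists of related genes; filled points have an adjusted p under 0.05. RACK1A is filled at 12 and 48 h, and OSK24 is filled and above 0 at all 3 times over sucrose.

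Of 3 aminoacyl-tRNA synthetase genes, which load amino acids onto tRNA, HisRS fell at 24 h (-1.48 ± 1.19, adjusted p = 0.0412) and none fell at 12 or 48 h. The 24 h arrays of HisRS were -2.09, -2.25 and -0.11. Over all features, 4.04%, 3.87% and 13.0% fell at 12, 24 and 48 h. All 3 synthetase genes had means below 0 at each time, with medians of -0.50, -1.08 and -0.94. LysRS averaged -1.0 at 48 h (adjusted p = 0.0520). Of 4 ribosome assembly genes, RRP46, an exosome subunit, fell at 48 h (-1.31 ± 1.03, adjusted p = 0.0259), and PES (-0.39 at 48 h), FIB and NUG2 passed at no time. On replicate 2 RRP46 had -2.50, against -0.81 and -0.63 on the others.

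The kinase list holds LST8, a partner of the growth-promoting TOR kinase, and 3 genes of SnRK1, the kinase active in starved plant cells. OSK24 (LOC4345873) rose at 12, 24 and 48 h, with means of 1.40, 1.18 and 2.04 (adjusted p = 0.0160, 0.0338 and 0.000745). OSK3 (LOC4332495) rose at 12 h (1.97 ± 0.27) and 24 h (1.09 ± 0.84), and averaged 0.52 at 48 h (adjusted p = 0.202). OSK1 (-0.57 at 48 h, adjusted p = 0.0574) and LST8 passed at no time. Over all features, 5.04%, 4.73% and 12.4% rose at 12, 24 and 48 h. OSK3 was also higher in sorbitol than in sucrose at 12 h, with 1.97 over sucrose and -0.20 over sorbitol (difference 2.17, adjusted p = 0.0239). In that comparison 1.00% of all features were higher, and it rests on the starved cells of both sets being alike.

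The 2 genes that share only the letters RPP encode phloem proteins of rice. RPP13-1 (LOC4342593), a thioredoxin h, had 0.08, 3.38 and 0.60 at 48 h (mean 1.35 ± 1.77, adjusted p = 0.0515), so its mean came mostly from replicate 2. RPP16 (LOC4336487) had -1.02, 1.80 and -0.67 (mean 0.03). Both stand outside the class counts above.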

How the data were processed

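Agilent rice arrays read starved cells in Cy5 and control cells in Cy3, per the labels. The values used are the table the authors deposited, taken as natural log ratios and turned to log2. The scale rests on the values: 2 columns end at the natural log of 0.01, and on 12 h replicate 1 316 ratios have 1 decimal on that scale, against 79 as log2 and 83 as log10 (tolerance 0.0001 on 10 times the ratio). For the sorbitol arrays, 12 h replicate 3 and 24 h replicate 3 the scale is taken to be the same and is not settled. Column means are near 0, and how they were centred, background-corrected or normalized is not given in the sources used here. Signal over background is unknown, since no scanner values were read, and the number of arrays limits the precision. Blanks (2.41%) were not filled.

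Of 21495 probes, 17839 had 1 gene, 21 several and 3635 none in GEO's platform annotation. All 15798 gene IDs were found in a RefSeq gene table (ASM3414082v1), used for names only. Probes of 1 gene were averaged, giving 19454 features. The fit used lmFit and eBayes of limma 3.58.1 (R 4.3.3), with 1 mean per group over all 12 arrays. The groups share 1 spread although the sorbitol arrays vary least, so p-values are likely too large against sorbitol and too small against sucrose. P-values were two-sided and adjusted over all features by Benjamini-Hochberg, with a threshold of 0.05, on features with a value on every array compared. The procedure was tested on simulated data. Tables and plots used Python 3.11.15, pandas 2.3.3 and matplotlib 3.10.9.

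Same-numbered arrays deviated together between 24 and 48 h (r 0.42 to 0.56 across probes), not for every pair between 12 h and either (-0.18 to 0.46), nor with sorbitol (-0.18 to 0.02). Some 12 h arrays deviated with arrays of another number. At 12 h, replicate 2 had r 0.50 with 24 h replicate 1, and replicate 1 had 0.38 with 24 h replicate 2. Named are members that passed in any group mean, pairs with a shared root name, members above 0 at all times, mitochondrial members, the member nearest 0 at 48 h, and from each other list the 2 largest at 48 h; further genes were named after their values were seen. Members and lists were chosen with earlier results of these data known. Alternatives were other scalings, other sets of arrays for the spread, array weights, the replicate block, fewer required values, each array left out, the arrays numbered 3 left out and upper-case names only. The last 2, and the block fit of the 24 and 48 h arrays alone, were not planned beforehand.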

Additional observations from a re-analysis of the deposited data

Results flagged for a closer look

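For 2 genes, the means over sucrose and over sorbitol had opposite signs and every array of a group lay on its own side of 0. RPL9 averaged -0.3324 at 12 h, -0.2317 at 24 h and -0.8864 at 48 h over sucrose, against 0.1462 at 12 h over sorbitol. For 12 h the difference was tested and missed the threshold (limma adjusted p = 0.467); for 24 and 48 h it was not tested. The gene rpl5 averaged -0.0997 at 24 h and -0.7641 at 48 h over sucrose, against 0.4338 at 12 h over sorbitol, and these differences were not tested. Time and control differ together in the untested pairs and cannot be told apart.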

How the results depend on the processing

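No direction of a count was reversed. Shares in brackets are of all features, in either direction. For ribosomal protein genes at 12 h, 4 fell with arrays set to 1 scale (9.67%), 4 with quantile normalization (11.8%) and 4 with array weights (11.8%), against 2 as reported (9.09%); leaving out 1 array gave 1 to 3. At 24 h 0 fell in a fit of those arrays alone (1.94%) and 11 with array weights (33.1%), against 3 (8.60%); leaving out 1 array gave 0 to 6, and factor genes reached 3 with array weights. At 48 h 3 fell in a fit of those arrays alone (5.26%), 9 without the sorbitol arrays (15.4%) and 9 with array weights (16.0%), against 14 (25.5%); leaving out 1 array gave 2 to 15. Against sorbitol, ribosomal protein genes that passed numbered 6 with 1 scale (15.1%), 7 with quantile normalization (20.3%), 9 with those arrays alone (35.9%) and 10 with array weights (40.9%), against 0 (0.0515%), and factor genes 3 and 4 in the last 2 fits; the number called rose over all features too. For sorbitol over sucrose 1 passed with 1 scale (7.78%) and 1 with quantile normalization (12.1%; RPL5, higher), and 1 with array weights (9.53%; RPS10-1, lower). Chosen after seeing the data, leaving out the arrays numbered 3 gave 6, 8 and 15 ribosomal protein genes (8.51%, 14.8% and 27.5%) and 1 factor gene at 48 h. Some of these fits had fewer arrays, and the cause of the changed counts was not tested.

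Over all features, 1396 rose and 1539 fell against sorbitol with 1 scale, and 1913 and 2030 with quantile normalization, against 10 and 0 as deposited. For sorbitol over sucrose they numbered 1250 and 963 with quantile normalization, against 183 and 83.

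With the replicate block, 3, 3 and 17 ribosomal protein genes fell at 12, 24 and 48 h (11%, 12.8% and 29.1%), and 0 passed for 48 h minus 24 h, the times whose numbers pair. The block also spans the 12 h and sorbitol arrays, whose numbers do not all pair. RPS10-1 at 12 h and RPL5 and RPS10-2 at 48 h passed in every planned fit, with any array left out too; no gene at 24 h did. Upper-case names only, and values on at least 2 arrays of a group, moved no count by more than 1.5 times.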
